A study of Mus musculus with 8 samples.

Results

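Hox genes encode homeodomain transcription factors that give cells their position along the head-to-tail axis of the embryo. The mouse genome holds 39 of them, and all 39 were found by symbol among the 45777 genes of the deposited table. Their expression was followed in the colon and liver of a mouse model of non-alcoholic steatohepatitis (NASH), a fatty liver disease with inflammation, in which extracellular vesicles (EVs) from bovine colostrum were examined. EVs are small membrane-bound particles that cells release, and colostrum is the first milk after birth.

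Each tissue was represented by 4 groups with 1 library each, which makes 8 libraries in all. The control group carried no model or treatment that the labels name, the NASH group was the disease model, and the EVs low dose and EVs high dose groups received colostrum vesicles, in the NASH model as the design text reads. The sources used here do not give the amounts, the mouse strain, sex, age and diet, the length of treatment, or whether tissue of several mice went into a library. Since no group had a replicate, none of the values below has an error, and a difference between groups cannot be told apart from a difference between animals, pieces of tissue or libraries. The labelled tissues carried their defining markers: 9 genes of gut epithelium summed to between 5388 and 7166 FPKM in the colon libraries, and 6 hepatocyte genes to between 22616 and 34887 FPKM in liver and between 17.8 and 24.2 FPKM in colon. The NASH colon library stood apart from the other colon libraries in genes of male accessory glands, and the EV high dose colon library in genes of pancreas, with values given beside the Hox results they touch. FPKM are fragments scaled by transcript length and by the mapped fragments of the library, so levels of different genes can be compared per length.

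The 39 genes lie in 4 clusters, and genes with the same number in different clusters are paralogs, the copies left by duplication of one ancestral cluster. In the assembly GRCm38.p6 (mm10), cluster A has 11 members on chromosome 6 from 52155367 to 52260880 on the minus strand, and cluster B has 10 members on chromosome 11 from 96194316 to 96368254 on the plus strand. Cluster C has 9 members on chromosome 15 from 102921131 to 103036856, and cluster D has 9 members on chromosome 2 from 74668225 to 74765142, both on the plus strand. Low-numbered genes are switched on early and towards the head, high-numbered ones later and towards the tail. In the developing gut the low and middle numbers mark foregut and midgut and the high numbers mark the hindgut, from which most of the colon forms. Adult gut keeps part of this order, with Hox transcripts found in muscle, connective tissue and nerve cells as well as in epithelium. A whole-tissue library therefore adds up several cell types, and fewer cells of a type and less RNA per cell cannot be told apart in it.

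The caudal-type factors CDX1 and CDX2, which specify the intestine, are known regulators of Hox genes and favour the letters TTTATG. The 250 bases before a start of transcription, the first one listed per gene, were taken from RefSeq on GRCm38.p6. They were found for 22 of the 39 members and searched on both strands. For Hoxb8, Hoxc4 and Hoxd10 the window lies inside the annotated span of the gene, so an annotated start further upstream was not searched. TTTATG was present in 5 of 22, which is 22.7%, beside 11.1% of 27025 genes with such a window. The 5 holders were Hoxa7, Hoxb8, Hoxd3, Hoxd4 and Hoxd11. The windows of Hoxb8, Hoxd4 and Hoxa7 are shown, of which Hoxb8 and Hoxa7 each held TTTATG at 2 places. Hoxb8 and Hoxd4 were 2-fold or more higher in the NASH colon library than in control, while Hoxa7 was not. Hoxb4, also past 2-fold there, had a window without TTTATG. No window was found for the others past 2-fold, Hoxb3, Hoxb5, Hoxb6 and Hoxb7. Capitals mark TTTATG or its reverse complement CATAAA, and each sequence reads 5′ to 3′ towards the gene, from chr11:96281655-96281904 on the plus strand, chr2:74721728-74721977 on the plus strand and chr6:52218574-52218823 on the minus strand.
Hoxb8: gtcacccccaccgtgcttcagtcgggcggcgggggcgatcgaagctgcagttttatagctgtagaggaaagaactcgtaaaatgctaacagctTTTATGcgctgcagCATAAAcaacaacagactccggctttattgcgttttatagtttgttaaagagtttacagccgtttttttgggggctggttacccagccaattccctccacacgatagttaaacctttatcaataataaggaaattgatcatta
Hoxd4: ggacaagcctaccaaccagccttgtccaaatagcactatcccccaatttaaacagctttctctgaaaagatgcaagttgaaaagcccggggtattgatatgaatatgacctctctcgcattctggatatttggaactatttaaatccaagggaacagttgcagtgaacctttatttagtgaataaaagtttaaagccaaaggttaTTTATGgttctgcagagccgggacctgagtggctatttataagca
Hoxa7: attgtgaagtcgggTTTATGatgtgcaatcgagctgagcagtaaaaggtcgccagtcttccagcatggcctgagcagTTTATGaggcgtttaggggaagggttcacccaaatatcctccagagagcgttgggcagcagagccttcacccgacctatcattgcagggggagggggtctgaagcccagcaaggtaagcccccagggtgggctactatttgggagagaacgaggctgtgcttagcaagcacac
In Hoxb8 the 2 matches lie close together on opposite strands. The match is a description of letters and not a measured binding site.

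The other letters searched were each present in at most 1 of the 22 windows. The homeodomain core TAATTA was present in 1 of 22 (4.55%), beside 4.90% of all genes. The PBX-HOX letters TGATTNAT were present in 1, Hoxa2, beside 2.99% of all genes, and TTTATTG, favoured by group 13 proteins, in 1, Hoxb8, beside 4.42%. The retinoic acid response letters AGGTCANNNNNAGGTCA were present in none of the 22 and in 0.0074% of all genes. The windows were rich in CG pairs, with a median of 12 against 6 over all genes, and ranged from 2 to 35.

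In colon, 19 members reached 1 FPKM in the control library, 25 in the NASH library, 21 in the EV low dose library and 20 in the EV high dose library. The summed Hox level was 208, 233, 218 and 219 FPKM in the same order, which is kept for every set of 4 colon values below. Of the 25 members that reached 1 FPKM in at least 1 colon library, 10 were in cluster A, 9 in B and 6 in D, and none in C. The other 14 stayed below it in all 4 libraries, among them Hoxb1, Hoxd1, Hoxd9, Hoxd12 and the 9 Hoxc genes. The plot of FPKM by paralog number shows 3 unlike shapes: a broad hump over cluster A, a spike at the end of cluster B, and a low line over cluster D that ends high.

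**Figure D1:**
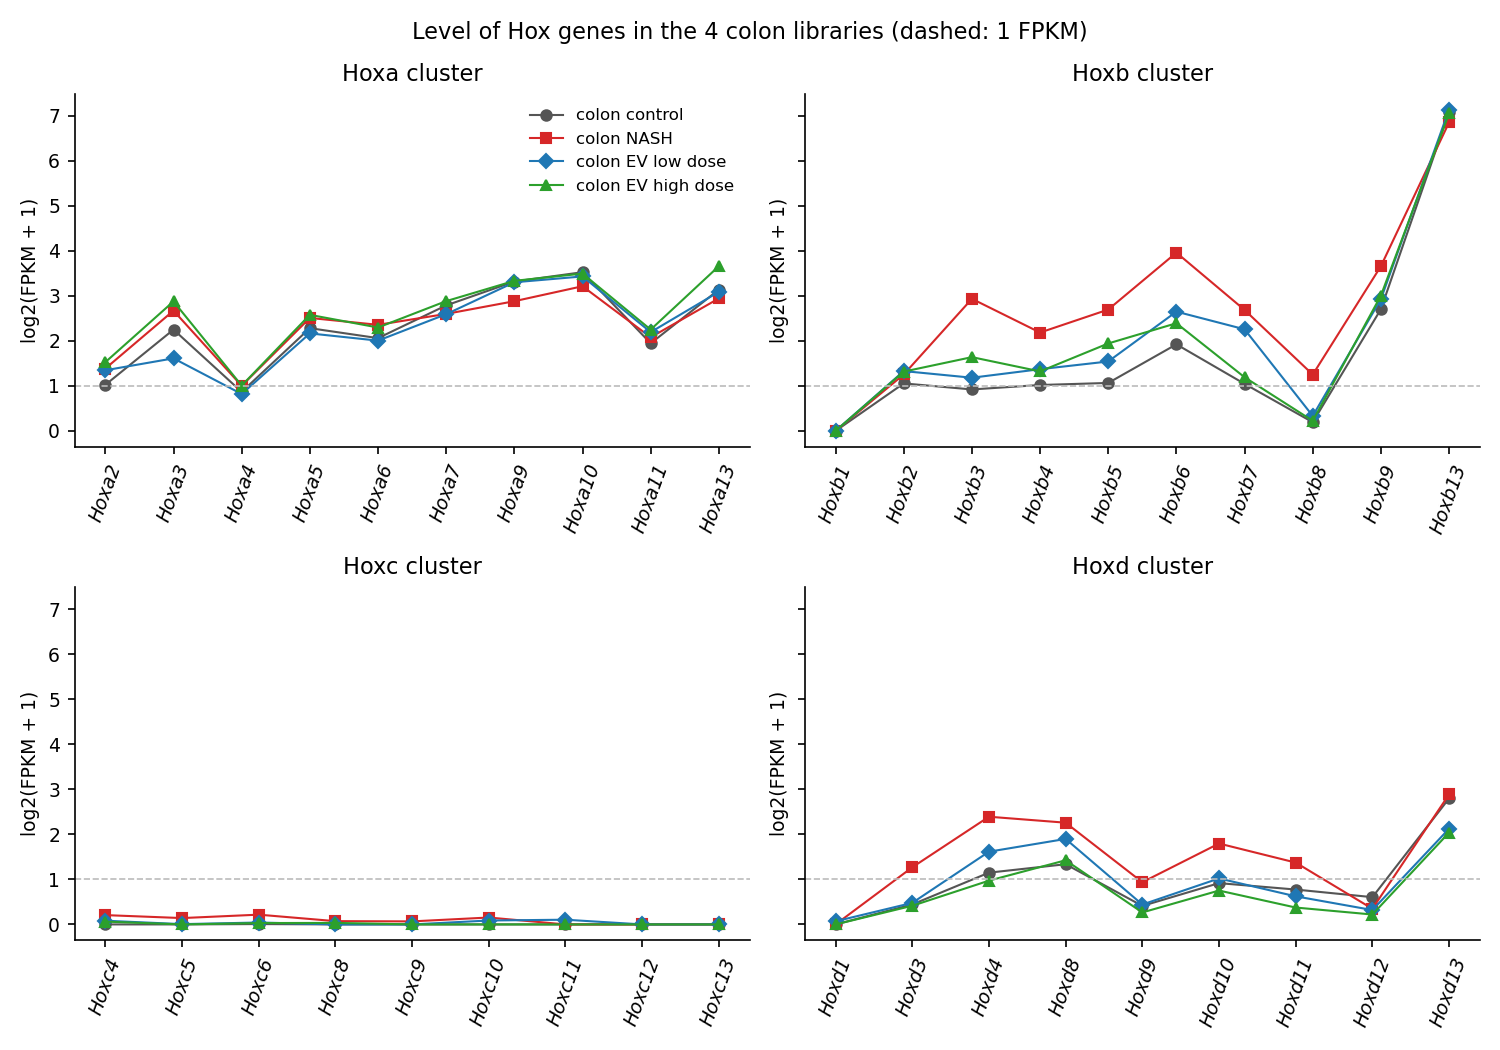
Log2(FPKM + 1) of Hox genes in the 4 colon libraries, 1 panel per cluster, with genes in order of paralog number on the x axis. Points are single libraries; the NASH library lies above the others over Hoxb3 to Hoxb9 and Hoxd3 to Hoxd11, and the libraries lie close together over cluster A and at Hoxb13.

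The highest member was Hoxb13, the last gene of its cluster and a marker of hindgut, tail and prostate. Its level was 134, 114, 140 and 131 FPKM, and between 0.896% and 0.913% of all genes in the table were above it. The 4 libraries lay within 1.22-fold of each other, with NASH the lowest. Hoxb13 alone held 64.4%, 49.2%, 63.9% and 60.03% of the summed Hox FPKM. The next member was Hoxa10 at 10.5 FPKM in control and 9.78 FPKM in EV low dose, Hoxb6 at 14.5 FPKM in NASH, and Hoxa13 at 11.6 FPKM in EV high dose. It sits 74.7 kb from Hoxb9, the widest gap between neighbours in cluster B.

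The other posterior genes of group 13 were Hoxa13 and Hoxd13, which together shape the hindgut, cloaca, digits and genitals. Hoxa13 was at 7.79, 6.69, 7.50 and 11.6 FPKM. Hoxd13 was at 5.95, 6.39, 3.36 and 3.11 FPKM, so both EV libraries were below both others. This difference did not reach 2-fold on the scale used for calls, log2 of FPKM plus 1, where Hoxd13 was at -0.67 in EV low dose relative to control and at -0.76 in EV high dose. The 3 group 13 genes summed to 148, 127.5, 150.4 and 146 FPKM, or 0.862, 1.02 and 0.989 times control in NASH, EV low dose and EV high dose.

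Cluster A varied little between the libraries. Its sum was 48.9, 46.5, 45.7 and 59.3 FPKM, and the highest of the 4 libraries was on median 1.40 times the lowest (1.27 to 3.08 over 10 members). Hoxa9 and Hoxa10, which pattern the lumbar region and the reproductive tract, led it. Hoxa9 was at 8.97, 6.36, 8.85 and 9.07 FPKM, and Hoxa10 at 10.5, 8.27, 9.78 and 10.3 FPKM. Hoxa7 was at 5.90, 5.05, 5.03 and 6.37 FPKM and Hoxa11, which acts in kidney and uterus, at 2.85, 3.22, 3.57 and 3.75 FPKM. In these middle and posterior genes the NASH library was the lowest for Hoxa9, Hoxa10 and Hoxa13 but not for Hoxa7 or Hoxa11.

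The anterior members of cluster A leaned the other way by small amounts. Hoxa5, needed for the lung and present in gut mesenchyme, was at 3.86, 4.69, 3.48 and 4.97 FPKM. Hoxa6 was at 3.17, 4.12, 3.01 and 3.91 FPKM, Hoxa4 at 0.823, 1.002, 0.765 and 1.01 FPKM, and Hoxa2, a gene of the pharyngeal arches, at 1.03, 1.61, 1.54 and 1.88 FPKM. Hoxa2 to Hoxa6 were all 5 above control in NASH, by log2 ratios of at most 0.42. Hoxa3, which patterns the pharyngeal pouches, was the exception to the narrow spread, at 3.76, 5.37, 2.06 and 6.34 FPKM. Its EV low dose value stood below the other 3 libraries, with a log2 ratio of -1.06 to NASH, and EV high dose was 1.26 above EV low dose. The annotated span of Hoxa3 overlaps Hoxa4, Hoxa5 and Hoxa6, so its fragments may be shared with them.

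Cluster B split at its gap. The 7 neighbouring genes Hoxb3 to Hoxb9 each had their highest level in the NASH library and their lowest in control, while Hoxb13 was lowest in NASH. Summed over the 7, the level was 12.5, 48.6, 20.7 and 19.2 FPKM, or 3.88, 1.65 and 1.53 times control. Their individual NASH levels were 2.11 to 9.64 times control.

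Hoxb6, expressed in early blood, limb bud and midgut mesoderm, was the highest of these, at 2.79, 14.5, 5.27 and 4.24 FPKM. Its log2 ratio of NASH to control was 2.04, and the NASH value stood well clear of the other 3. Hoxb3, a hindbrain and pharyngeal gene, was at 0.893, 6.64, 1.27 and 2.11 FPKM, with a log2 ratio of 2.01. Hoxb5, a regulator of the enteric nervous system, was at 1.09, 5.47, 1.91 and 2.84 FPKM, with a log2 ratio of 1.63. Both had EV values between control and NASH, and both were higher in EV high dose than in EV low dose.

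Hoxb7, long used as a marker of the ureteric bud, was at 1.06, 5.43, 3.78 and 1.28 FPKM. Here the EV low dose library stood near NASH and EV high dose near control. Its log2 ratios were 1.64 for NASH to control, 1.21 for EV low dose to control and -1.06 for EV high dose to EV low dose. Hoxb4, known for expanding blood stem cells, was at 1.03, 3.54, 1.59 and 1.50 FPKM, a log2 ratio of 1.16 in NASH. Hoxb4 shares 3372 bases of annotated span with Hoxb3, so fragments may be shared between them.

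Hoxb8, which acts in spinal cord and myeloid cells, reached 1 FPKM in the NASH library alone, at 0.143, 1.38, 0.259 and 0.168 FPKM. The log2 ratio of NASH to control was 1.06, and the FPKM ratio of 9.64 rests on a control level equivalent to between 3 and 13 fragments, depending on the length assumed. Hoxb9, a thoracic gene, was at 5.51, 11.6, 6.60 and 7.03 FPKM, and its log2 ratio of 0.96 fell just short of 2-fold. At the front of the cluster the pattern faded: Hoxb2 was at 1.08, 1.38, 1.51 and 1.49 FPKM, and Hoxb1 was listed at 0 in all 8 libraries.

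Cluster D also had its highest middle levels in the NASH library. Hoxd3, Hoxd4, Hoxd8, Hoxd9, Hoxd10 and Hoxd11 summed to 5.03, 14.4, 7.11 and 4.16 FPKM, or 2.87, 1.41 and 0.827 times control. All 6 were highest in NASH, at 2.24 to 3.92 times control. Unlike Hoxb3 to Hoxb9, the EV high dose sum of these genes was below control.

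Hoxd4, a gene of the hindbrain and neck vertebrae, was at 1.22, 4.25, 2.06 and 0.961 FPKM. Its log2 ratio of NASH to control was 1.24, the only one of the cluster past 2-fold on the scale with 1 FPKM added. Hoxd8, present in trunk mesoderm, was at 1.53, 3.78, 2.73 and 1.68 FPKM (log2 0.92). Hoxd10, which patterns lumbar motor neurons, was at 0.888, 2.47, 1.03 and 0.684 FPKM (log2 0.88). Both lay nearer to control than to NASH in the EV high dose library. Hoxd3 was at 0.359, 1.41, 0.393 and 0.332 FPKM, and Hoxd11, a gene of forearm and kidney, at 0.710, 1.59, 0.541 and 0.297 FPKM. Hoxd3 overlaps Hoxd4 by 7183 bases and Hoxd10 overlaps Hoxd11 by 2744 bases. Hoxd9 came closest to 1 FPKM without reaching it, at 0.329, 0.914, 0.358 and 0.202 FPKM. Hoxd12 was at 0.521, 0.273, 0.248 and 0.165 FPKM, with control the highest, and Hoxd1 was listed at 0 in all colon libraries but EV low dose, at 0.0489 FPKM.

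Cluster C, whose genes act in trunk, limb and skin, was close to silent in colon. No member passed 0.162 FPKM, and Hoxc12 and Hoxc13 were listed at 0 in all 8 libraries. The cluster summed to 0.00546, 0.630, 0.230 and 0.0891 FPKM. In NASH the 6 genes Hoxc4, Hoxc5, Hoxc6, Hoxc8, Hoxc9 and Hoxc10 were above 0, each at a level equivalent to 11 fragments or fewer. In control only Hoxc6 was above 0. Counts this small carry wide counting error, so no fold is given for them.

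Counted together, 7 of the 25 members at 1 FPKM or more were 2-fold or more higher in NASH than in control: Hoxb3, Hoxb4, Hoxb5, Hoxb6, Hoxb7, Hoxb8 and Hoxd4. No member was 2-fold lower. Over all 15245 genes kept by the same rule, 2.43% were 2-fold higher and 1.97% lower. The count depends on the FPKM added before the ratio: it was 12 with 0.1 added, beside 5.56% of all genes, and 1 with 5 added, beside 0.800%. The members' median log2 ratio was 0.42 and that of all genes 0.06, and 20 of the 25 lay above 0. By cluster, 6 of 9 members of B, 1 of 6 of D and 0 of 10 of A were past 2-fold, with medians of 1.16, 0.85 and 0.14. NASH was the highest of the 4 libraries for 14 of the 25 members, namely 7 of 9 in B, 6 of 6 in D and 1 of 10 in A, and for 33.6% of all genes. Hoxb8, Hoxd3 and Hoxd11 were kept through the NASH library alone, so their place in this count, and that Hoxb8 was not lower in NASH, was fixed by the filter. EV high dose was the highest for 8 of the 10 members of cluster A and for 23.6% of all genes.

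**Figure D2:**
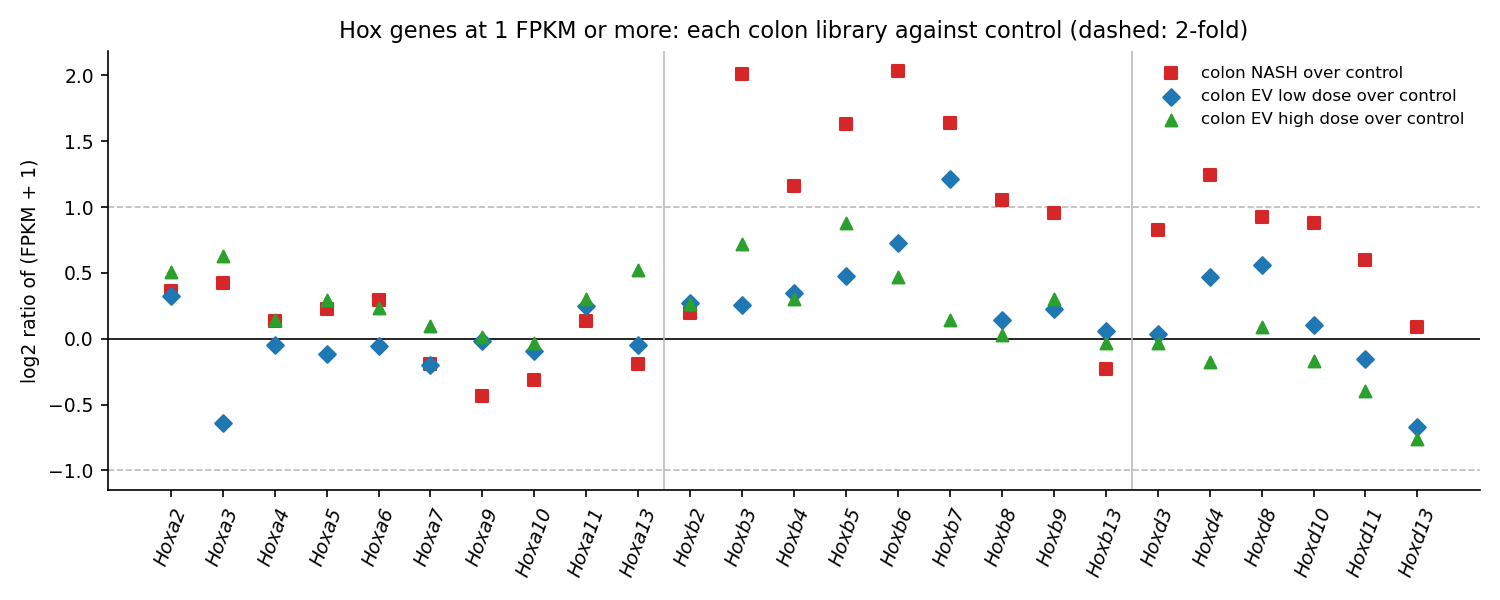
Log2 ratios, on FPKM plus 1, of the Hox genes that reached 1 FPKM in colon, for the NASH, EV low dose and EV high dose libraries each over control, with dashed lines at 2-fold. Hoxb3 to Hoxb8 and Hoxd4 lie past 2-fold in NASH and Hoxb7 in EV low dose, and each point is a ratio of 2 single libraries that shares the control library with the others.

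Relative to NASH, the EV libraries had lower levels of the same stretch of cluster B. In EV low dose 4 of 25 members were 2-fold or more lower and none higher, beside 1.95% of all genes lower and 0.905% higher. They were Hoxb3 (log2 -1.75), Hoxb6 (-1.31), Hoxb5 (-1.15) and Hoxa3 (-1.06). In EV high dose 6 of 25 were lower and none higher, beside 1.43% and 1.1% of all genes. They were Hoxb6 (log2 -1.57), Hoxb7 (-1.49), Hoxd4 (-1.42), Hoxb3 (-1.30), Hoxd10 (-1.04) and Hoxb8 (-1.03). The members' median log2 ratio was -0.43 at the low dose and -0.65 at the high dose, against -0.06 and 0.02 over all genes. With libraries scaled by the median of ratios, Hoxa3 in EV low dose (log2 -0.97) and Hoxb8 in EV high dose (log2 -0.9995) were just inside 2-fold. These comparisons share the NASH library with the comparison of NASH to control, so a library that is high in a gene appears in each of them. Hoxb8, Hoxd3 and Hoxd11 were kept through the NASH library alone. That they lay below NASH in these counts and medians was therefore fixed by the filter.

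Set directly against control, with the NASH library used in the filter but not in the ratios, few members of the EV libraries were past 2-fold. Hoxb7 in EV low dose was the only one of 25 members past 2-fold, beside 1.15% of all genes higher and 1.74% lower. In EV high dose no member was past 2-fold in either direction, beside 1.33% and 1.27% of all genes. Hoxb5 was the farthest above control in EV high dose, with a log2 ratio of 0.88. In FPKM with nothing added, Hoxb5 was 2.60 and Hoxb3 2.37 times control there, and Hoxd11 0.418 times. Between the doses, Hoxa3 was higher (log2 1.26) and Hoxb7 lower (-1.06) in EV high dose, 1 of 25 each, beside 0.872% and 0.682% of all genes. With libraries scaled to the same sum, Hoxb7 was inside 2-fold (log2 -0.93). Hoxb8, Hoxd3 and Hoxd11, kept through the NASH library alone, were under 1 FPKM in control and both EV libraries. With 1 FPKM added they could not pass 2-fold in any comparison of this paragraph, so that outcome was fixed in advance.

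The NASH colon library also stood apart in genes of other tissues. A list of 12 genes of seminal vesicle and prostate, male accessory glands that lie beside the hindgut, summed to 456, 16167, 594 and 555 FPKM. Without Spink1, which colon also expresses, the 11 others were all listed at 0 in control and EV low dose. In EV high dose they were at 0 but for 1 gene, Defb50, at 0.151 FPKM. In NASH 10 of the 11 were above 0, among them the seminal vesicle proteins Svs4 at 6903 and Svs5 at 6210 FPKM and the prostate protein Pbsn at 863 FPKM. Sbp was at 0 in all 4 colon libraries. The epithelia of these glands are themselves known to express Hox genes. Their part in the Hox values of the NASH library was not tested.

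Markers of fat and small intestine differed between the libraries as well. The 6 adipocyte markers summed to 89.0, 295, 145 and 68.2 FPKM, or 3.32, 1.63 and 0.766 times control, with Adipoq at 5.31, 19.8, 9.63 and 3.16 FPKM. The 7 markers of ileum and small intestine summed to 10.4, 61.3, 54.6 and 34.6 FPKM, or 5.87, 5.23 and 3.32 times control. The bile acid transporter Slc10a2, a gene of the ileum, was at 2.49, 28.1, 19.9 and 11.2 FPKM. The list did not peak in 1 library: Fabp6 and Sis were also highest in NASH, but Lct, Apoa4 and Fabp1 in EV high dose and Lyz1 in EV low dose. Enteric neuron and glia markers were at 1.59, 1.44 and 1.86 times control, while smooth muscle, fibroblast, epithelium, leukocyte and endothelium markers were between 0.722 and 1.29 times. Pancreas markers were at 35.3, 0.837, 0.199 and 2011 FPKM, the last in the EV high dose library. Hoxb3 to Hoxb9 were 3.88, 1.65 and 1.53 times control in NASH, EV low dose and EV high dose. These libraries differed in markers of accessory glands, fat and small intestine, so such differences cannot be told apart with 1 library per group. The part of these tissues, or of pancreas, in the Hox values was not tested.

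**Figure D3:**
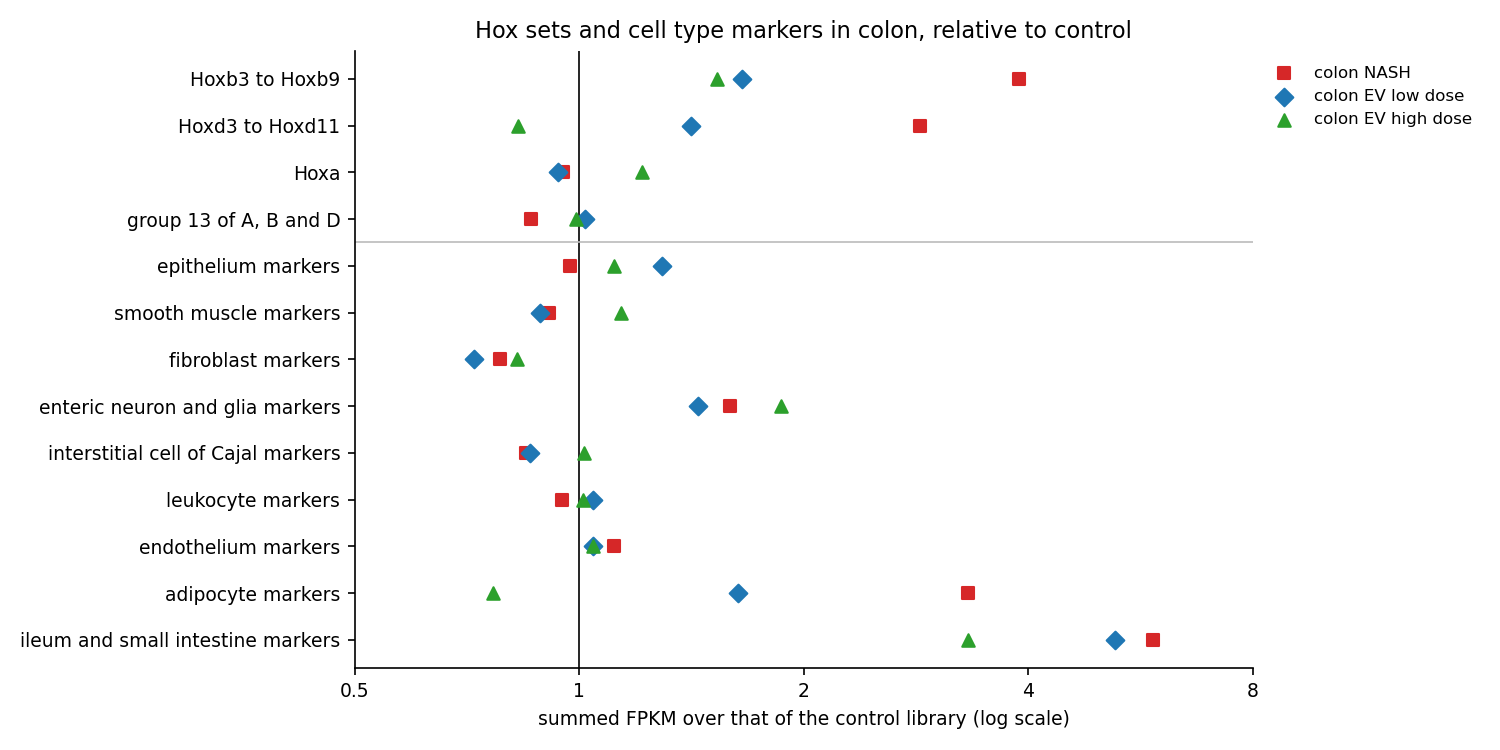
Summed FPKM of Hox sets and of cell type marker lists in the NASH, EV low dose and EV high dose colon libraries, divided by the control library, on a log scale. Hoxb3 to Hoxb9, Hoxd3 to Hoxd11, adipocyte and small intestine markers have their highest ratio in NASH, at 3.88, 2.87, 3.32 and 5.87, while cluster A and group 13 stay between 0.862 and 1.21.

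The paralog groups that hold the Hox transcripts were compared as shares, which no scaling of a library can change. In a library that also holds other tissues these shares cover all Hox transcripts, and whether they follow gut position here was not tested. Groups 10 to 13 held 78.5% of the summed Hox FPKM in control, 61.6% in NASH, and 75.9% and 73.7% at the low and high EV dose. Groups 5 to 9 held 16.5%, 27.4%, 18.9% and 19.1%, and groups 1 to 4 held 4.99%, 10.95%, 5.22% and 7.21%. The share of groups 10 to 13 was the lowest of the 4 in the NASH library.

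Because Hoxb13 dominated these sums, they were also taken without it. Groups 10 to 13 then held 39.5%, 24.5%, 33.2% and 34.2%, again lowest in NASH. In FPKM, however, the posterior sum without Hoxb13 was nearly level, at 29.2, 29.0, 26.2 and 29.9. Groups 1 to 4 were at 10.4, 25.5, 11.4 and 15.8 FPKM and groups 5 to 9 at 34.4, 63.7, 41.3 and 41.8 FPKM. The lower posterior share in NASH therefore went with more anterior and middle Hox transcripts and, apart from Hoxb13, with about the same posterior sum. Single genes in that sum moved in both directions. Hoxd10, Hoxd11, Hoxa11 and Hoxd13 were 2.78, 2.24, 1.13 and 1.07 times control in NASH, and Hoxa10, Hoxa13 and Hoxd12 were 0.787, 0.858 and 0.523 times.

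**Figure D4:**
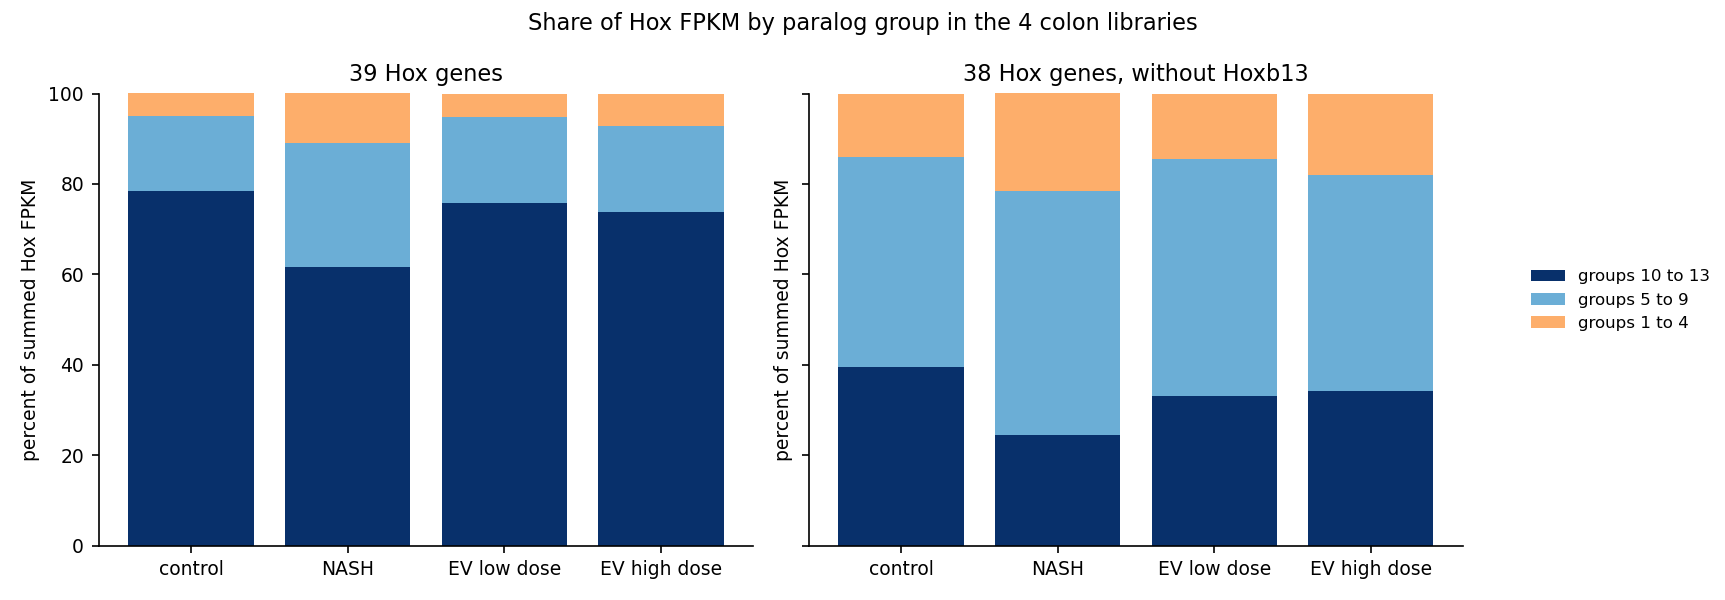
Share of summed Hox FPKM held by paralog groups 1 to 4, 5 to 9 and 10 to 13 in each colon library, over 39 genes on the left and without Hoxb13 on the right. The bar of groups 10 to 13 is shortest in NASH in both panels, at 61.6% and 24.5%.

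The mean paralog number weighted by FPKM was also taken for each cluster. In cluster A it was 8.49, 7.94, 8.69 and 8.37, in B 12.4, 10.9, 12.1 and 12.1, and in D 10.6, 8.93, 9.05 and 9.77. NASH had the lowest mean in all 3 clusters, but in D the EV low dose mean lay nearer to NASH than to control. Leaving out Hoxb13 brought the mean of cluster B to 6.57, 6.10, 6.41 and 6.22, so that the spread between libraries there shrank with it.

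The NASH-to-control ratio did not follow distance along the DNA in a simple way. Within cluster B it was highest over Hoxb3 to Hoxb8 and lower at both ends. Within cluster D, on the scale with 1 FPKM added and over the 6 members kept, it was highest at Hoxd4 and lowest at Hoxd13. Within cluster A it was above 0 from Hoxa2 to Hoxa6 and at Hoxa11, and below 0 at Hoxa7, Hoxa9, Hoxa10 and Hoxa13.

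**Figure D5:**
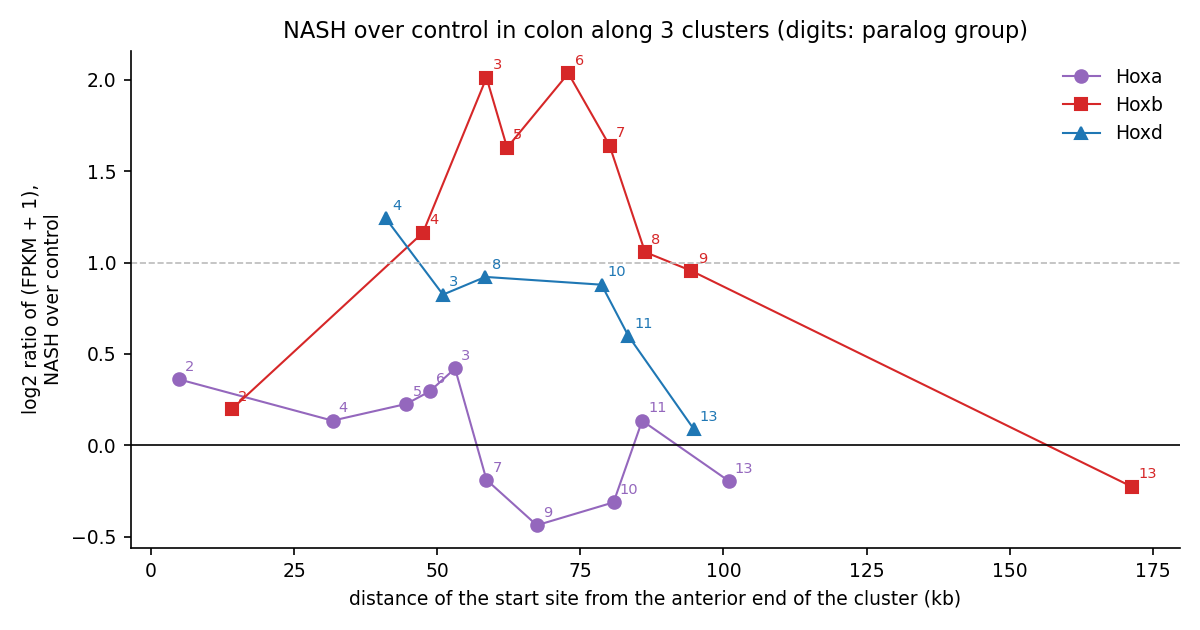
Log2 ratio of NASH over control, on FPKM plus 1, against distance in kb from the anterior end of each cluster. Cluster A lies between -0.44 and 0.42, while cluster B lies above 1 over Hoxb3 to Hoxb8 and is back at -0.23 at Hoxb13.

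Liver served as the tissue outside the Hox-positive gut. No member reached 1 FPKM in any liver library, and the highest single values were 0.196, 0.423, 0.351 and 0.259 FPKM. The liver sums were 0.637, 2.23, 1.30 and 1.34 FPKM, with 24 members at 0 in all 4 libraries. The 8 members above 0 in every liver library were all of groups 1 to 5, among them Hoxa2, Hoxa3, Hoxa5, Hoxb2, Hoxb3, Hoxb4 and Hoxb5. Hoxb13, the leading gene of colon, was at 0 in all 4. Of the 25 kept members, 16, 23, 19 and 19 were 2-fold or more higher in colon than in liver in control, NASH, EV low dose and EV high dose, beside 41.8%, 25.1%, 26.7% and 30.2% of all genes. In all 4 groups 15 members passed, beside 18.8% of all genes. With 1 FPKM added, a member under 1 FPKM in a colon library could not pass there. At most 19, 25, 21 and 20 members could therefore pass in the same order, and the counts follow these limits. Since no member reached 1 FPKM in liver, all 25 were kept through colon alone and could not be counted as lower there, while the genes set beside them include those kept through liver.

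Partners of the Hox proteins differed less. PBX and MEIS proteins bind DNA together with HOX proteins and sharpen the sites they choose. None of the 7 cofactor genes kept of 9 was 2-fold apart in any of the colon comparisons. Over all genes the shares in either direction were between 0.682% and 2.43%. Meis1, chosen for mention after its values were seen, was at 3.57, 5.11, 3.59 and 4.65 FPKM.

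The clusters also hold microRNAs and long noncoding RNAs that tune Hox genes. Of 19 such neighbours, 18 were in the table and 8 reached 1 FPKM in colon, of which 1 was 2-fold higher in NASH than in control and none lower, beside 2.43% and 1.97% of all genes. It was Mir10b, which lies inside the annotated spans of Hoxd3 and Hoxd4 at chr2:74726070-74726137 and was at 0, 1.27, 0 and 0 FPKM (log2 1.19). Fragments of Mir10b and of these host genes cannot be told apart, and since Mir10b passed the 1 FPKM filter through the NASH library alone, its place in these counts was fixed by the filter. In EV low dose 3 were lower than in NASH, Mir10b (-1.19), Mir10a (-1.17) and Mir196a-1 (-1.06), and in EV high dose 1, Mir10b, beside 1.95% and 1.43% of all genes. Mir10a, at chr11:96317165-96317274, was at 0.737, 1.87, 0.271 and 0.822 FPKM, and Mir196a-1, at chr11:96265164-96265265, at 10.7, 19.3, 8.71 and 15.6 FPKM. Mir10a lies inside the annotated span of Hoxb3, so fragments of the pair cannot be told apart. Mir10a too reached 1 FPKM in the NASH library alone, so its being lower in EV low dose than in NASH was fixed by the filter. These values are fragments over short hairpin genes in total RNA libraries and do not measure the mature microRNAs. Low levels here may rest on few fragments, whose number was not estimated.

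The mature forms are shown because miR-10 and miR-196 lie inside or beside the stretches that were high in NASH and miR-196 is a known repressor of Hoxb8. Capitals mark the seed, bases 2 to 8, which is shared by miR-10a and miR-10b, and sequences are from RefSeq.
miR-10a-5p: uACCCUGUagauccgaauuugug
miR-10b-5p: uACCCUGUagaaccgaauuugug
miR-196a-5p: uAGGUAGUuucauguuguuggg
Among the long noncoding RNAs the highest was Hoxa11os, antisense to Hoxa11, at 38.7, 26.2, 35.6 and 42.4 FPKM, above Hoxa11 itself in each library. Hottip, at the posterior end of cluster A, was at 5.89, 2.94, 5.50 and 6.83 FPKM, and Hotairm1, at the anterior end, at 3.17, 1.37, 2.22 and 2.28 FPKM. Both were lowest in NASH, with log2 ratios to control of -0.81 and -0.82, whereas Hoxa2 to Hoxa6 were above control there. Both were named after their values were seen. No source used here says whether the counting used strand, so fragments of antisense RNAs and of the Hox genes they overlap cannot be told apart.

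Genes that mark gut regions were compared because the Hox genes of mesenchyme and the CDX factors of epithelium both follow position. Of 14 such genes 13 were in the table and 7 were kept. None was 2-fold apart between NASH and control, EV low dose and NASH, or EV high dose and NASH. Over all genes 2.43% were higher and 1.97% lower in NASH than in control. The median log2 ratio of NASH to control was 0.46 for the 7 genes and 0.06 for all genes. The highest was Hnf4a at 74.2, 102.5, 76.1 and 94.5 FPKM. Cdx1 was at 41.1, 54.0, 40.7 and 48.3 FPKM and Cdx2 at 33.4, 50.7, 44.9 and 51.4 FPKM, named here for their known roles.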

How the data were processed

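Per the labels' protocols, colon and liver RNA came from a TRIzol and RNeasy Plus extraction, and the TruSeq Stranded Total RNA Gold kit was used for libraries. Trimmomatic 0.38, HISAT2, StringTie and the build mm10 stand in the submitters' processing notes; the sources used here do not give the roles of these tools, their other versions or the use of strand. The authors deposited 1 table of FPKM with 1 column per library and 45777 genes, of which 45679 were matched to symbols of GRCm38.p6 and 98 were not. Groups were taken from the sample titles.

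Ratios were taken on log2(FPKM + 1), which understates the ratios of low genes. Genes at 1 FPKM or more in at least 1 of 4 colon libraries were kept (15245 genes, 25 of 39 members), or in 1 of 8 libraries for colon against liver (16284 genes), and 2-fold was counted as apart. Just inside this filter were Hoxa4 and Hoxb8, with highest values of 1.01 and 1.38 FPKM, and just outside Hoxd9 at 0.914 and Hoxd12 at 0.521. With 1 library per group no test was run. The steps between low FPKM values of single-exon genes would put the depth at 32.6 to 42.3 megafragments (Mfragments) per colon library and 43.6 to 63.9 per liver library, if the smaller of the commonest steps is 1 fragment. Only 9.61% to 10.8% of those values in colon fell on whole steps within 0.02, so counts were not recovered and fragment numbers in the text are estimates.

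Members at 1 FPKM or more in a colon library are given with their 4 values, and other members by range and count; a few items are not reported here. Genes of context lists were named when 2-fold apart or highest of their list, apart from those said to be chosen otherwise. The members and lists were chosen with earlier results of these data known. Python 3.11.15, numpy 2.4.6 and pandas 2.3.3 were used. Alternatives were 0.1 or 5 FPKM added, other scalings, other filters, and control as the base of the EV ratios, the last chosen after seeing the data.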

Additional observations from a re-analysis of the deposited data

How the results depend on the processing

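No paired analysis was possible because each group and tissue had 1 library, and for the same reason no replicate could be left out. Among alternative values of counts, shares and means, 77 stayed close to those reported and 37 moved. With 0.1 FPKM added, the members 2-fold higher in NASH than control were 12, and 5.56% of all genes passed. The members lower than NASH were then 10 at the low and 11 at the high EV dose (5.07% and 2.94% of all genes). Those lower in EV high than EV low dose were 2 (1.71%), those higher and lower in EV high dose than control 2 and 1 (3.17% and 2.89%), and those higher in colon than liver in all 4 groups 25 (28.3%). With 5 FPKM added these counts were 1 for NASH over control, 0 and 1 for the EV doses below NASH, 0 in each direction between doses, 0 for EV low dose over control and 6 for colon over liver (8.79% of all genes, and at most 0.800% in the others). Kept at 5 FPKM, 12 members were counted, of which 4 were higher in NASH than control (2.5% of all genes) and 3 lower in EV high dose than NASH (1.31%). With libraries scaled to the same summed FPKM, 0 members were lower in EV high than EV low dose. The counts of low members thus depended on the added value, which is built to shrink or widen their ratios.

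Groups 10 to 13 held, in the order control, NASH, EV low dose and EV high dose, 39.5%, 24.5%, 33.2% and 34.2% without Hoxb13 and 42.5%, 33.1%, 38.5% and 37.6% of summed log2(FPKM + 1). The mean paralog number of cluster B was 8.88, 7.57, 8.34 and 8.25 with log2 weights and 6.57, 6.10, 6.41 and 6.22 without Hoxb13. That of cluster D was 7.94, 7.16, 7.25 and 7.45 without Hoxd13. NASH stayed lowest in each of these sets.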

Other observations

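Retinoic acid, made from vitamin A, switches on anterior Hox genes in the embryo. Of 14 genes of its synthesis, breakdown and receptors, 9 were kept in colon and none was 2-fold apart in NASH over control, with a median log2 ratio of 0.37 beside 0.06 for all genes. The highest was the synthesis enzyme Aldh1a1, at 54.8, 71.2, 85.8 and 74.3 FPKM in control, NASH, EV low dose and EV high dose.

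Polycomb proteins keep Hox genes silent and trithorax proteins keep them active. All 18 genes listed were kept, and 1 was 2-fold higher in NASH than in control and none lower, beside 2.43% and 1.97% of all genes. It was Kmt2d, a histone methyltransferase of the trithorax group, at 4.33, 9.93, 3.39 and 6.87 FPKM. EV low dose had 2 genes 2-fold lower than NASH, Kmt2d (log2 -1.32) and the demethylase Kdm6b (log2 -1.14), beside 1.95% of all genes, and both ratios use the NASH library. The highest of the list was Eed, a core Polycomb subunit, at 13.5, 11.3, 11.9 and 11.2 FPKM.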
